A study of Mus musculus with 6 samples.

Results

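The genes described here build and run mitosis. They are 54 mouse genes of the mitotic spindle, the kinetochore and cytokinesis, chosen by symbol. The list was drawn up with earlier results of these data known. All 54 were among the 18124 genes listed in the deposited count table, and all 54 passed the filter on low counts that left 14644 genes to test. They fall into 10 groups by role: 7 kinases, 5 cyclins and CDC25 phosphatases, 4 genes of the anaphase-promoting complex and separase, 10 kinesins, 10 kinetochore and centromere genes, 5 condensin subunits, 2 genes of the chromosome surface and topoisomerase, 6 spindle assembly genes, 4 cytokinesis genes and 1 transcription factor.

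In mitosis the kinase Cdk1, bound to a cyclin, drives the cell into division, condensins compact the chromosomes, and kinetochores attach them to the microtubules of a spindle that kinesins move and shape. The spindle checkpoint holds the anaphase-promoting complex in check until every chromosome is attached. That complex then marks cyclins and securin for destruction, separase cuts cohesin, and the midzone proteins lead the cell through cytokinesis. Most of these genes are transcribed late in the cycle, in G2 and M phase, from promoters bound by the MuvB complexes together with B-Myb and FoxM1. Their messenger RNA is scarce in cells that are not cycling.

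The libraries came from mesenchymal stem cells of mouse quadriceps muscle, sorted from 6 naïve male Col1-eGFP mice as live (DAPI-negative) cells positive for eGFP under a collagen 1 promoter and for Sca-1, and expanded to passage 4. For 72 hours the cells grew in medium that bone marrow-derived macrophages of wild type mice had conditioned. The macrophages were either control, non-senescent cells or cells made senescent with hydrogen peroxide at 300 µM for 3 hours, repeated 3 days later and followed by 14 days of culture, and each medium was gathered over 48 hours, gathered again and pooled. There were 3 libraries for each medium, called control 1 to 3 and senescent 1 to 3 here after the medium the cells were kept in, so that "senescent" never describes the sequenced cells themselves. Every cell in both groups carried the same Col1-eGFP genotype. Ages are not given in the labels, nor is the time for which control macrophages were cultured, and the peroxide treatment therefore cannot be told apart from a difference in culture time. Nor is it said whether the 3 libraries of a medium stand for different mice, sorts or lots of medium. All p-values therefore weigh the difference between media only against the scatter among these libraries, and that scatter may be technical.

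The libraries held between 17228162 and 21659434 estimated counts. Of the 14644 genes tested, 24.9% were lower and 24.6% higher in senescent medium by edgeR's quasi-likelihood test at an adjusted p under 0.05, so a change in either direction was common. All 13 markers of collagen 1 and Sca-1 positive mesenchymal cells were listed, with a summed level of 14267 to 14338 CPM (scaled counts, with TMM factors applied) in control and 18734 to 19272 CPM in senescent medium, although Nt5e and Lum were close to 0. Among them the sorted-for genes were abundant, with Col1a1 at a mean of 5361 CPM in control and 7516 CPM in senescent medium and the Sca-1 gene Ly6a at 1206 and 1235 CPM. The sum is mostly collagen: 6 of the 11 tested markers rose and 4 fell, namely Pdgfra, Pdgfrb, Eng and Twist2, to 81.9%, 81.4%, 84.5% and 61.5% of control. Of 15 macrophage and leukocyte markers 6 were listed, summing to 19.1 to 22.2 CPM in control and 18.4 to 25.2 CPM in senescent medium, and Ptprc, Adgre1 and Itgam were not listed. Within that sum Lyz2 rose to 173.7% of control, Cd14 fell to 45.3% and Csf1r to 69.3%, so 1 marker was higher and 2 were lower. Endothelial markers (4 of 7 listed) summed to 24.2 to 26.5 and 26.3 to 33.2 CPM, with 1 marker called higher. Pericyte and smooth muscle markers (6 of 7) summed to 1305 to 1369 and 1362 to 1440 CPM, with 2 called lower and 1 higher. Of 8 satellite cell and myogenic markers, Des and Acta1 were listed and both rose, their sum going from 9.41 to 11.1 CPM up to 17.5 to 19.8 CPM, while Pax7, Myf5, Myod1, Myog, Mymk and Ckm were not listed. The part of any of these cell types in the changes below was not tested.

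The letters of the members' promoters are shown first, as a description. RefSeq start sites on build GRCm38.p6 gave windows of 300 bases (250 before to 50 after the start) for 45 of the 54 members. No window was held for Aurkb, Ccna2, Cdc25c, Foxm1, Kif20a, Ska1, Smc4, Spc24 and Tpx2. The windows were searched on both strands for the letters of the cell cycle genes homology region, or CHR (TTTGAA or TTCGAA), for CCAAT, and for E2F-like letters (TTCGCGC or TTGGCGC). On the printed strand TTTGAA can also read TTCAAA and CCAAT can read ATTGG, while TTCGAA is its own reverse complement. In textbook accounts the CHR is the element that MuvB complexes bind, and CCAAT is bound by NF-Y. A match is a description of letters and not a shown binding site, and a window without a match says only that these letters are absent from it.

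The 8 members below have a single window in which both CHR and CCAAT letters lie within the 120 bases before the start, and they show the arrangement most plainly. Pttg1, the member that rose, is printed last for contrast. Capitals mark CHR and CCAAT letters, and each line runs 5′ to 3′ toward the start, from position −120 to −1.
Cdc20, chr4:118437344-118437463, minus strand: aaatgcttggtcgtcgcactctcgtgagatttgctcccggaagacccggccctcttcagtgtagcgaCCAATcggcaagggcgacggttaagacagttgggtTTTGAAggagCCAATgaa
Cdk1, chr10:69352913-69353032, minus strand: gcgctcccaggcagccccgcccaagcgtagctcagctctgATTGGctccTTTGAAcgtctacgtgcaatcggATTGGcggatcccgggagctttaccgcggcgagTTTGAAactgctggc
Ckap2, chr8:22185820-22185939, minus strand: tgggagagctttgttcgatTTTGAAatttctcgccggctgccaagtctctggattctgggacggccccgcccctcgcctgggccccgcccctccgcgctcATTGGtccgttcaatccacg
Espl1, chr15:102296173-102296292, plus strand: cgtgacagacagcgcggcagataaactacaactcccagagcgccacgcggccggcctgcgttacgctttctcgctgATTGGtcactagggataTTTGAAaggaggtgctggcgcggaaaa
Kif11, chr19:37376262-37376381, plus strand: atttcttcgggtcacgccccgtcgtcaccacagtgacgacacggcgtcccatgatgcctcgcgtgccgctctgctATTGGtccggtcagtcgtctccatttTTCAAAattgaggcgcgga
Kif22, chr7:127042421-127042540, minus strand: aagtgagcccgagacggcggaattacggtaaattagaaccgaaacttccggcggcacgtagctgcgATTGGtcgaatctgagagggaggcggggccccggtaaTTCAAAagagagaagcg
Top2a, chr11:99024190-99024309, minus strand: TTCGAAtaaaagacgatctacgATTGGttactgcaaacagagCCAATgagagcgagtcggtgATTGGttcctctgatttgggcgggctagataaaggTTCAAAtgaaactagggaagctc
Ube2c, chr2:164769809-164769928, plus strand: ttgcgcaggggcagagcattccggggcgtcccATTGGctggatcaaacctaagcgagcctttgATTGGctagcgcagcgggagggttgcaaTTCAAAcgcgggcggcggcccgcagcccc
Pttg1, chr11:43425982-43426101, minus strand: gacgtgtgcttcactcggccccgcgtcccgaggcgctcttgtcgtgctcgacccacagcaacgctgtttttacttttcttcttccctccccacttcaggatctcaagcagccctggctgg

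In Cdc20, Espl1, Kif11, Kif22 and Ube2c the CHR letters stand between CCAAT letters and the start or between a pair of CCAAT copies. Cdk1 holds a pair of CHR copies and a pair of CCAAT copies in this stretch, and Top2a a pair of CHR copies and 3 of CCAAT. Ckap2 has them in the other order, CHR letters first. The 120 bases before Pttg1 hold neither, and neither does the rest of its window. Pttg1 is not alone in this, since 7 members had neither in their windows. The others of these, Birc5, Kif18a, Mad2l1, Ncaph, Nuf2 and Nusap1, all fell.

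For other members the CHR letters lay just after the start. Their 20-base surroundings are given for 6 genes whose values are described below, with the CHR letters in capitals.
Plk1, chr7:122159458-122159477, plus strand: cgccgcgTTTGAAttcgggg
Aurka, chr2:172370526-172370545, minus strand: gagaaccTTTGAAttgtaac
Ccnb2, chr9:70421538-70421557, minus strand: cgcggtaTTTGAAtcgcgga
Kif23, chr9:61946785-61946804, minus strand: tggcctgTTTGAAatgcgcc
Cenpa, chr5:30666895-30666914, plus strand: gtgatttTTTGAActgctgg
Racgap1, chr15:99651639-99651658, minus strand: gcgtgatTTTGAAccggatc

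Counted from +1 at the start, the CHR letters lay at 31 to 36 in Plk1, 33 to 38 in Aurka, 5 to 10 in Ccnb2, 3 to 8 in Kif23, 17 to 22 in Cenpa and 6 to 11 in Racgap1. In these 6 genes they read TTTGAA on the gene's own strand. Some of the stretch may be transcribed.

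CHR letters were found in 35 of the 45 member windows (77.8%), against 16.3% of the 10300 tested genes with a window and 19.2% of all 32851 windows. CCAAT letters were in 33 (73.3%) against 43.1% of tested genes and 37.4% of all windows. E2F-like letters were rarer, in 9 members (20.0%) against 8.11% of tested genes and 3.89% of all windows. Both CHR and CCAAT letters were in 30 members (66.7%) and in 8.18% of tested genes. By group the CHR letters were in all 6 kinases with a window, all 4 cytokinesis genes and 88.9% of 9 kinesins, and in 4 of 8 kinetochore genes. With the 250 bases before the start alone, the share with CHR letters was 44.4% of members and 14.6% of tested genes, since many CHR letters of members lie after the start. DNA replication genes, which are transcribed in G1 and S phase, held CHR letters in 9 of 41 genes with a window. CCAAT letters were in 58.5% of them and E2F-like letters in 31.7%. With the 250 bases before the start alone, E2F-like letters were in 17.1% of DNA replication genes and 17.8% of members. Their difference in E2F-like letters is thus not seen in that window. Within 50 bases on either side of the start, a window added after the data were seen, the shares were 29.3% (12 of 41) and 11.1% (5 of 45). The dependence on the window leaves this difference unsettled, and it was not tested. Kinesins of transport and interphase held CHR letters in 13.6% of 22 genes with a window.

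**Figure D1:**
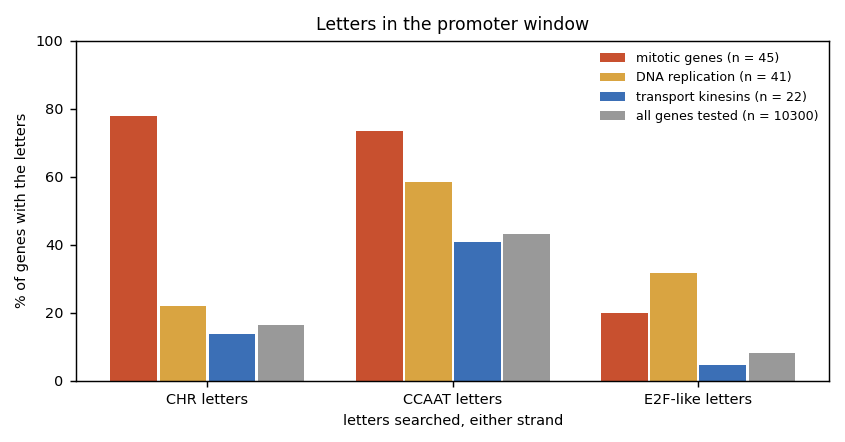
Share of genes (%, vertical axis) whose 300-base window holds the CHR, CCAAT or E2F-like letters on either strand, for the mitotic genes, DNA replication genes, transport kinesins and all tested genes with a window. The CHR bar of the mitotic genes stands at 77.8% beside 16.3% of all tested genes, and the E2F-like bars stand at 20.0% in the mitotic and 31.7% in the DNA replication genes.

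The letters did not order the members by their change. The 35 members with CHR letters had a median log2 fold change (senescent over control medium) of −1.36, the 10 without them −1.46, and the 9 with no window −1.37. Among the 10 without CHR letters (Birc5, Ccnb1, Cenpe, Gtse1, Kif18a, Mad2l1, Ncaph, Nuf2, Nusap1 and Pttg1) were both Nuf2, the member with the largest fall, and Pttg1. These are descriptions, with no test.

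In senescent macrophage medium 53 of the 54 mitotic genes fell and 1, Pttg1, rose, by edgeR's quasi-likelihood test with Benjamini-Hochberg adjustment over all 14644 genes. Of all tested genes 24.9% were called lower and 24.6% higher. Since the members were chosen with earlier results known, their counts beside these shares describe the list and are no independent evidence. The members' median log2 fold change was −1.37, or 38.8% of the control level, beside a median of −0.00096 over all tested genes. A fall of more than 2-fold, a log2 fold change under −1, was called for 46 members, where the background is 3.27%. In bulk RNA, fewer dividing cells and less of this RNA in each cell cannot be told apart.

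The libraries of the media did not overlap for any member. For 53 members all senescent-medium libraries lay below all control libraries, an arrangement found in 28.0% of tested genes, and for Pttg1 all lay above, as in 27.8%. Summed over the members, the level was 1818, 1885 and 1899 CPM in control 1, 2 and 3 and 768, 802 and 808 CPM in senescent 1, 2 and 3. The means were 1867 ± 42.9 and 793 ± 21.4 CPM (SD, n = 3), so the mitotic genes together held 42.5% of their control level. Here and below, ± after a CPM value is the SD of 3 libraries and ± after a log2 fold change is its SE.

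**Figure D2:**
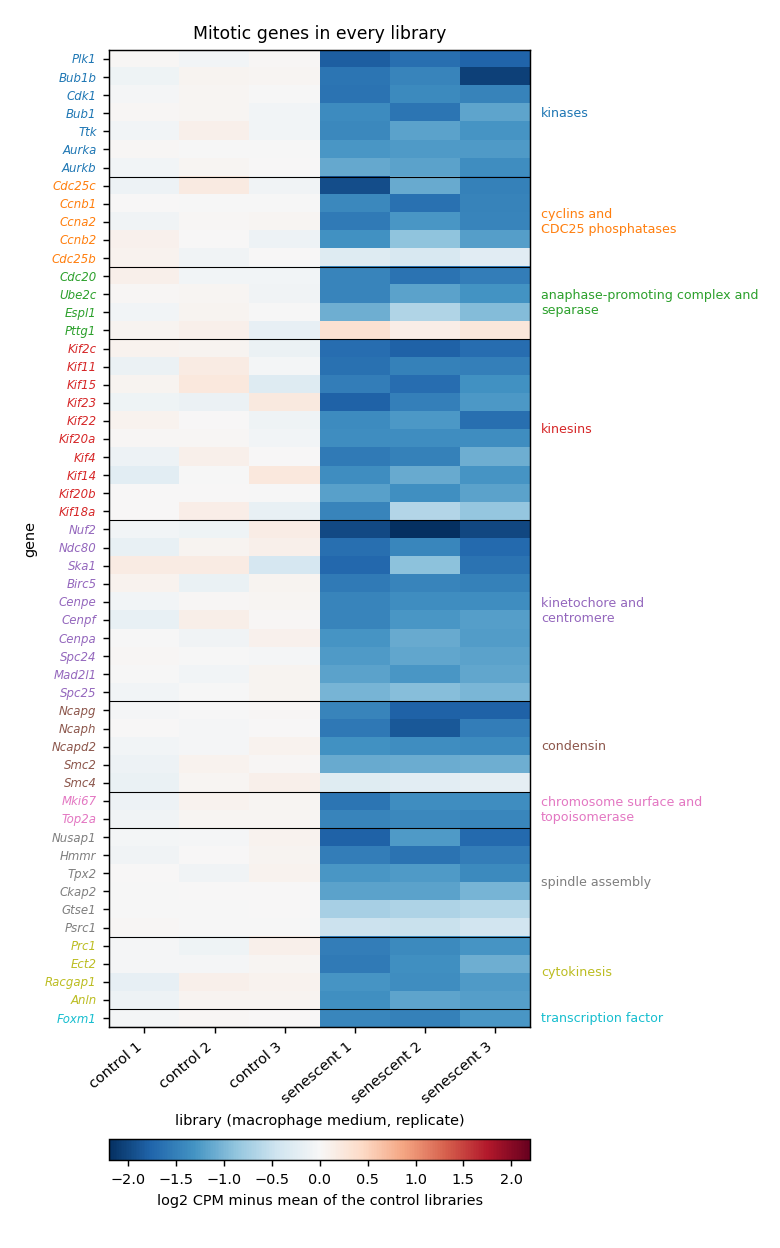
Log2 CPM of each of the 54 genes (rows, grouped by role) in each of the 6 libraries (columns), minus the mean of the control libraries. The senescent columns are blue throughout except for Pttg1, and pale for Cdc25b, Smc4 and Psrc1.

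The kinases set the pace of mitosis, and all 7 fell (median log2 fold change −1.38). Plk1 (ENSMUSG00000030867), the polo-like kinase of centrosomes and kinetochores, stood at 42.9, 39.99 and 42.9 CPM in control 1, 2 and 3 and at 11.8, 13.3 and 12.4 CPM in senescent 1, 2 and 3. Each control library held about the same level, and the senescent-medium libraries lay far below them. Its log2 fold change was −1.75 ± 0.074 (adjusted p = 1.14e-18, edgeR), the largest fall of a kinase. Bub1b, a kinase-like protein of the spindle checkpoint, read 24.3, 27.3 and 26.7 CPM in control and 8.50, 9.43 and 6.202 CPM in senescent medium, with senescent 3 the lowest, a log2 fold change of −1.70 ± 0.11. Cdk1, the kinase that starts mitosis, measured 56.8, 59.5 and 57.9 CPM against 18.9, 21.8 and 20.96 CPM, a fall to 35.4% of control (log2 fold change −1.501 ± 0.063).

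The checkpoint kinases Bub1 and Ttk changed by −1.38 ± 0.11 and −1.33 ± 0.16. Aurka, the centrosomal Aurora kinase, was the most even of the kinases, at 23.3, 22.7 and 22.6 CPM in control and 9.36, 9.53 and 9.57 CPM in senescent medium. Its log2 fold change of −1.27 ± 0.087 was close to that of Aurkb, the Aurora kinase of the chromosomal passenger complex (−1.23 ± 0.10). Differences between members in the size of their fall were not tested, here or below.

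Of the cyclins and CDC25 phosphatases, which bind and activate Cdk1, all 5 fell (median −1.43), but Cdc25b stood apart. Ccnb1, the main mitotic cyclin, read 37.0, 36.5 and 36.3 CPM in control and 13.6, 11.7 and 13.2 CPM in senescent medium, a log2 fold change of −1.51 ± 0.075. Ccna2, the cyclin of S and G2 phase, changed by −1.43 ± 0.072 and the mitotic cyclin Ccnb2 by −1.15 ± 0.11. Cdc25c, the phosphatase that acts at mitotic entry, was low in every library, with 4.00, 5.03 and 4.11 CPM in control and 1.06, 1.97 and 1.49 CPM in senescent medium (log2 fold change −1.55 ± 0.22). Its relative Cdc25b went from 15.7, 14.1 and 15.1 CPM to 12.3, 11.8 and 12.5 CPM. The groups did not overlap, yet the senescent-medium level was still 81.4% of control (log2 fold change −0.29 ± 0.093, adjusted p = 0.00944, edgeR). The ratio of Cdc25b to Cdc25c counts was 3.93, 2.81 and 3.68 in control and 11.6, 5.97 and 8.42 in senescent medium, without overlap. This and the other ratios below were chosen after the values were seen and carry no test, and since counts are not scaled for gene length, only the shift of a ratio between media is read. By comparison the Ccnb1 to Ccnb2 ratio overlapped between media, at 1.95, 2.05 and 2.21 in control and 1.95, 1.23 and 1.73 in senescent medium.

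Of the 4 genes in the group of the anaphase-promoting complex and separase, 3 fell and 1, Pttg1, rose slightly. Cdc20, which activates the anaphase-promoting complex, fell from 65.2, 57.7 and 57.7 CPM to 21.99, 19.4 and 20.9 CPM, a log2 fold change of −1.53 ± 0.066. Ube2c, the ubiquitin-conjugating enzyme of that complex, fell from 43.8, 44.6 and 40.9 CPM to 15.6, 18.96 and 17.2 CPM (−1.32 ± 0.072). For these genes the lowest control library was more than 2-fold above the highest senescent-medium library. Espl1, the separase that cuts cohesin, changed less, from 17.9, 19.5 and 18.5 CPM to 8.83, 11.7 and 9.57 CPM (−0.90 ± 0.10).

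Pttg1 (ENSMUSG00000020415), the securin that holds separase inactive, was the member that rose. It read 11.9, 12.4 and 10.1 CPM in control and 14.5, 12.7 and 13.6 CPM in senescent medium. The highest control and the lowest senescent-medium library nearly met, and the log2 fold change was 0.24 ± 0.10 (adjusted p = 0.0467, edgeR). The rise kept its call in 7 of 14 alternative settings and its direction in all of them, at log2 fold changes of 0.16 to 0.31. Its adjusted p was 0.121 with DESeq2, 0.191 with library totals alone and 0.0529 with no filter on low counts. Leaving out control 1, control 3, senescent 1 or senescent 3 gave 0.0515, 0.251, 0.175 and 0.0887. The ratio of securin to separase counts (Pttg1 to Espl1) was 0.666, 0.637 and 0.544 in control and 1.64, 1.08 and 1.42 in senescent medium, without overlap.

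Kinesins are motors that walk along or take apart microtubules, and all 10 fell, between −1.73 and −0.98 with a median log2 fold change of −1.41. Kif2c, which takes apart microtubule ends at centromeres, fell most, from 22.1, 21.9 and 19.2 CPM to 6.53, 6.07 and 6.49 CPM (−1.73 ± 0.10). Kif11, the motor that pushes spindle poles apart, read 24.4, 30.1 and 25.9 CPM in control and 8.45, 9.43 and 9.38 CPM in senescent medium, a log2 fold change of −1.56 ± 0.094. Its partner in spindle bipolarity, Kif15, changed by −1.55 ± 0.16. The chromosome-arm motors Kif22 and Kif4 changed by −1.45 ± 0.11 and −1.36 ± 0.11.

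Among the kinesins of the spindle midzone, Kif20a had the most even values in senescent medium, at 66.0, 66.3 and 62.0 CPM in control and 25.1, 25.0 and 25.2 CPM in senescent medium (log2 fold change −1.37 ± 0.057). Kif23, a subunit of centralspindlin, was more uneven, at 14.4, 14.0 and 17.8 CPM against 4.37, 5.33 and 6.35 CPM (−1.52 ± 0.13). Both fell without overlap of the libraries, and Kif14 and Kif20b, which act in cytokinesis, changed by −1.29 ± 0.14 and −1.25 ± 0.10. Kif18a, which dampens the movement of chromosomes at the metaphase plate, fell least of the kinesins, from 5.86, 6.46 and 5.17 CPM to 2.06, 3.68 and 3.17 CPM (−0.98 ± 0.18), and its low counts made it one of the less precise values. Adding the kinetochore motor Cenpe gave 11 of 11 motor genes lower, with a median of −1.40.

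All 10 kinetochore and centromere genes fell, and their median log2 fold change was −1.365. Nuf2 (ENSMUSG00000026683), a subunit of the Ndc80 complex that grips microtubules, had the largest fall of all 54 members. It read 22.8, 22.4 and 26.6 CPM in control 1, 2 and 3 and 5.95, 4.74 and 5.91 CPM in senescent 1, 2 and 3, which leaves 23.1% of the control level. The log2 fold change was −2.10 ± 0.11 (adjusted p = 9.50e-17, edgeR).

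The 4 subunits of the Ndc80 complex fell by unequal amounts. Ndc80 itself changed by −1.63 ± 0.13 and Spc24 by −1.21 ± 0.15. Spc25 went from 22.3, 23.2 and 24.2 CPM to 11.4, 12.1 and 11.5 CPM (−0.99 ± 0.084), the least of the kinetochore genes. The ratio of Nuf2 to Spc25 counts was 1.02, 0.964 and 1.10 in control and 0.521, 0.390 and 0.512 in senescent medium. Ndc80 to Spc24 ratios were 1.63, 1.96 and 2.07 against 1.42, 1.53 and 1.29, a smaller shift that also did not overlap.

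Of the other kinetochore genes, Birc5 (survivin, of the chromosomal passenger complex) changed by −1.51 ± 0.095, the motor Cenpe by −1.40 ± 0.075 and the large outer protein Cenpf by −1.33 ± 0.088. Cenpa, the histone variant that marks centromeres, read 26.7, 25.4 and 28.9 CPM in control and 10.9, 12.5 and 11.5 CPM in senescent medium, a log2 fold change of −1.22 ± 0.085. Mad2l1, the checkpoint protein that inhibits Cdc20, changed by nearly the same amount (−1.21 ± 0.078). Ska1, which helps kinetochores follow shrinking microtubules, was the least abundant member by counts, at 2.25, 2.26 and 1.52 CPM against 0.528, 1.01 and 0.577 CPM, and its log2 fold change of −1.52 had the widest error (SE 0.33).

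Condensin I has 5 subunits, all among the members, and all 5 fell, but not alike. Its 3 non-SMC subunits fell most: Ncapg changed by −1.68 ± 0.12, Ncaph by −1.65 ± 0.099 and Ncapd2 by −1.36 ± 0.060 on the log2 scale. The ATPase subunits, which condensin II uses too, fell less. Smc2 went from 47.6, 53.7 and 52.3 CPM to 23.8, 24.1 and 24.3 CPM (−1.09 ± 0.063).

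Smc4 (ENSMUSG00000034349), the partner of Smc2 in the same dimer, went only from 37.3, 42.9 and 44.6 CPM to 34.3, 35.4 and 36.2 CPM. Control 1 lay close to the senescent-medium libraries, although the groups did not overlap, and the log2 fold change was −0.24 ± 0.064 (adjusted p = 0.00268, edgeR). Over the 14 alternative settings it stayed between −0.32 and −0.19, with an adjusted p of at most 0.0287. The ratio of Smc4 to Smc2 counts went from 0.784, 0.800 and 0.853 in the control libraries to 1.44, 1.47 and 1.49 in senescent medium. The ratio of Ncapg to Smc2 moved the other way, from 0.321, 0.286 and 0.302 to 0.234, 0.184 and 0.182.

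**Figure D3:**
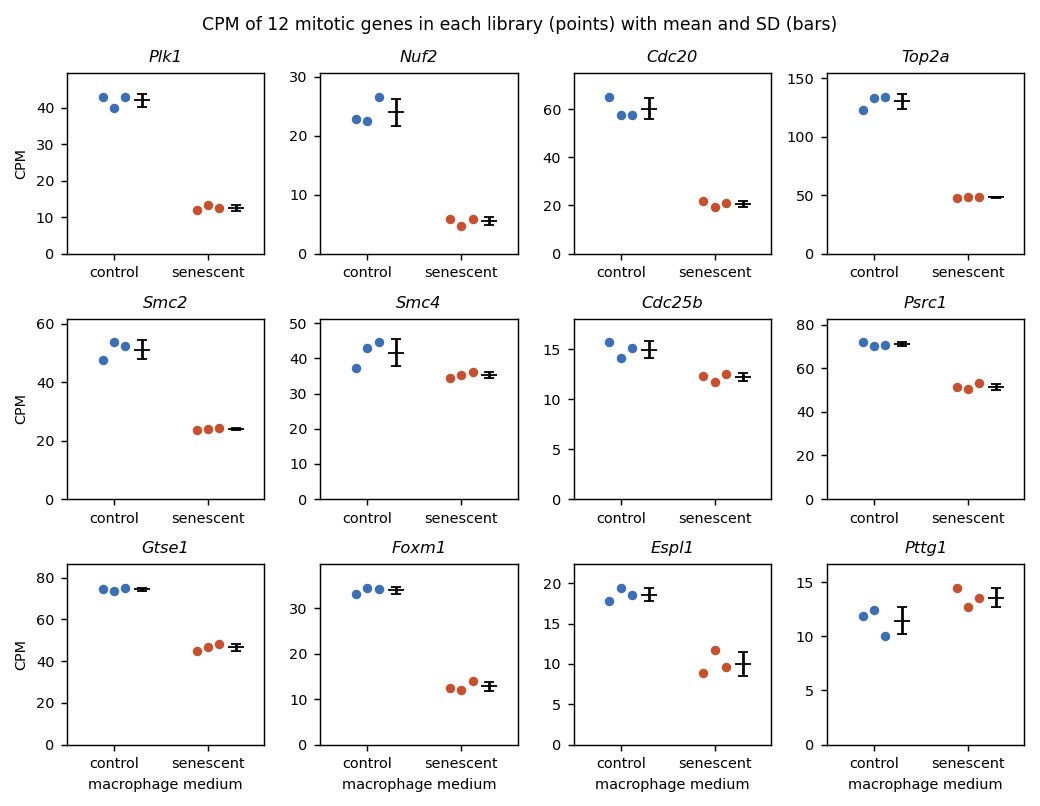
CPM (vertical axis, from 0) of 12 mitotic genes in each library, by macrophage medium, with points for libraries and bars for mean and SD of 3. Plk1, Nuf2, Cdc20, Top2a and Foxm1 fall to less than 40% of control, while Smc4, Cdc25b and Psrc1 stay above 70% and Pttg1 is higher.

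Mki67, which coats the surface of mitotic chromosomes and serves as a marker of cycling cells, and Top2a, the topoisomerase that untangles sister chromatids, had the highest CPM of the members. Mki67 read 97.9, 111 and 109 CPM in control and 34.7, 41.1 and 40.9 CPM in senescent medium, with control 1 and senescent 1 the lowest of their medium. Top2a read 123, 133 and 134 CPM against 47.6, 48.4 and 48.3 CPM. Their log2 fold changes were nearly equal, at −1.45 ± 0.062 and −1.44 ± 0.047, and Top2a had the smallest adjusted p of the members (1.90e-21, edgeR).

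The 6 spindle assembly genes all fell, over a wide range. Nusap1, which bundles spindle microtubules, and Hmmr, a spindle pole protein, changed by −1.58 ± 0.11 and −1.56 ± 0.075. Tpx2, which activates Aurka on the spindle, changed by −1.31 ± 0.061 and Ckap2, a microtubule-binding protein, by −1.12 ± 0.055. Gtse1, a microtubule plus-end protein that also binds p53, moved less, from 74.4, 73.7 and 75.1 CPM to 44.7, 46.7 and 48.2 CPM (−0.68 ± 0.050). Psrc1, another spindle microtubule protein, moved least of the 6, from 72.0, 70.3 and 70.6 CPM to 51.2, 50.4 and 53.1 CPM (−0.46 ± 0.049, adjusted p = 2.79e-09, edgeR). For both genes the libraries of a medium were within a few CPM of each other, so these smaller falls are among the more precise values. The Psrc1 to Nusap1 ratio was 3.55, 3.44 and 3.20 in control and 8.47, 5.74 and 8.43 in senescent medium.

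All 4 cytokinesis genes were lower, at log2 fold changes between −1.41 and −1.25. Prc1, which bundles the microtubules of the midzone, fell from 67.5, 64.5 and 74.2 CPM to 23.9, 25.9 and 27.9 CPM (−1.41 ± 0.064). Anln, the scaffold of the contractile ring, fell from 65.6, 74.6 and 74.0 CPM to 28.0, 31.8 and 30.6 CPM (−1.25 ± 0.061). Between them lay Ect2, the exchange factor that activates RhoA at the midzone (−1.33 ± 0.10), and its partner Racgap1 (−1.32 ± 0.073). Foxm1, the transcription factor that drives many G2 and M phase genes, read 33.0, 34.5 and 34.3 CPM in control and 12.4, 12.1 and 14.0 CPM in senescent medium, a log2 fold change of −1.40 ± 0.077 that was near the median of the members.

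The median log2 fold changes of kinases, kinesins, kinetochore genes, condensin and cytokinesis genes were −1.38, −1.41, −1.365, −1.36 and −1.32. Those of the other groups ran from −1.44 for the chromosome surface genes and −1.43 for cyclins and CDC25 phosphatases, through −1.40 for Foxm1, to −1.22 for spindle assembly and −1.11 for the anaphase-promoting complex and separase. Single members within the kinetochore group span from −2.10 to −0.99 and within condensin from −1.68 to −0.24. The differences between groups were not tested. The members that stood outside the main cluster, above −0.7, were Gtse1, Psrc1, Cdc25b, Smc4 and Pttg1, which come from 4 of the groups.

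**Figure D4:**
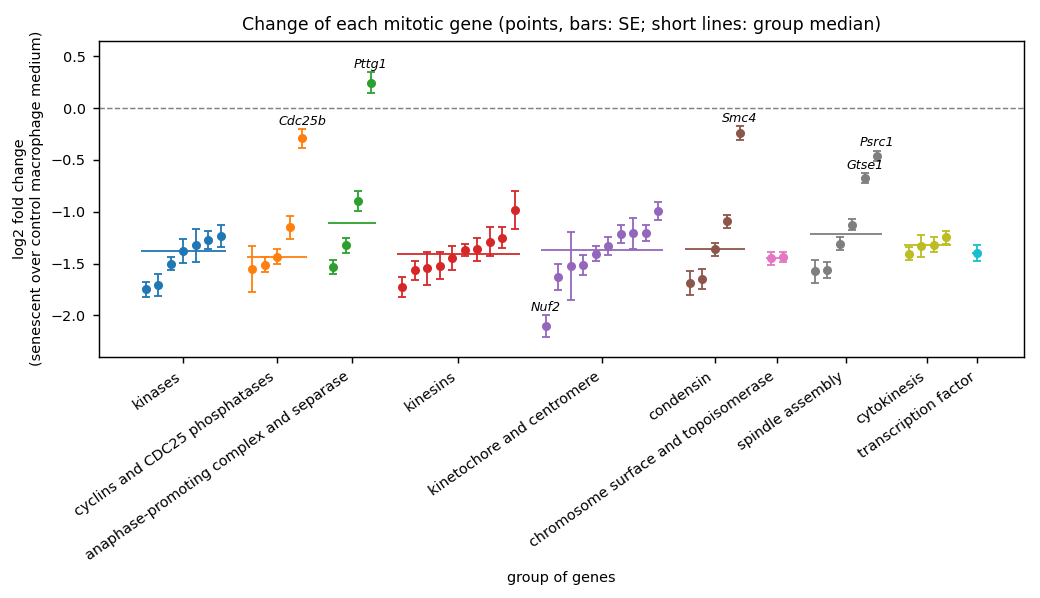
Log2 fold change (vertical axis, senescent over control medium) of each mitotic gene with its SE, ordered within 10 groups by role, with group medians as short lines. Most points lie between −1.75 and −0.9, Nuf2 lies lowest at −2.10 and Pttg1 is above 0.

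Across libraries the groups also moved together. The median member was −0.026, 0.017 and 0.016 log2 units from the control mean in control 1, 2 and 3 and −1.44, −1.32 and −1.31 in senescent 1, 2 and 3. Senescent 1 was the lowest of its medium for 31 members and senescent 3 for 6. In the kinesins the medians were −1.48, −1.43 and −1.31, and in condensin −1.33, −1.37 and −1.38, so senescent 1 was the lowest in the former and the highest in the latter. The coefficient of variation between libraries had a median over members of 5.34% in control and 7.49% in senescent medium, where counts are lower.

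Levels of different genes were compared per kilobase of exon (CPM per kb, exon lengths from GENCODE M21). In control medium Cdc20 was highest at 32.2 CPM per kb, followed by Gtse1 at 27.2, Ckap2 at 22.8, Psrc1 at 21.1 and Plk1 at 19.1, and Kif18a was lowest at 0.593. In senescent medium the order changed, with Gtse1 at 16.97 and Psrc1 at 15.3 CPM per kb ahead of Cdc20 at 11.1 and Ckap2 at 10.4. Pttg1 moved from rank 27 (5.73 CPM per kb) to rank 5 (6.79), and Smc4 from rank 19 (7.99) to rank 6 (6.78). Plk1 went from rank 5 to 9 and Nuf2 from rank 35 to 44, at 3.78 and 0.873 CPM per kb. Exon lengths pool all annotated transcripts, so these levels are approximate.

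Other genes of the same machines, listed by role and outside the 54, mostly fell too, but by smaller medians. Their counts, here and below, are to be read beside the 24.9% of all tested genes called lower and the 24.6% called higher. Of 22 further outer kinetochore and checkpoint genes 20 fell and 1 rose (median log2 fold change −0.98). Incenp, of the chromosomal passenger complex, changed by −1.29 ± 0.075 and Knl1, the scaffold for checkpoint proteins, by −1.77 ± 0.11, while Zwint rose slightly (0.16 ± 0.038), a call that was lost with library totals alone (adjusted p = 0.0669, edgeR). Of 20 inner kinetochore and CENP-A loading genes 17 fell and 1 rose (median −0.77), with Hjurp, the chaperone that loads CENP-A, at −0.46 ± 0.046 and the centromere DNA-binding protein Cenpb higher at 0.18 ± 0.034. Of 37 further spindle, centrosome and microtubule genes 33 fell and 1 rose (median −0.72), among them Ckap2l (−1.56 ± 0.074) and Tacc3 (−1.22 ± 0.070), and Haus2 rose by 0.19 ± 0.077 but lost its call with library totals (adjusted p = 0.258, edgeR).

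For the anaphase-promoting complex, whose Cdc20 and Ube2c are described above, 17 further subunits and regulators were tested. Of these 11 fell and 3 rose (median −0.19). With 24.6% of all tested genes called higher, the 3 rises are no more than the background. Anapc2 and Cdc27 changed by −0.39 ± 0.040 and −0.40 ± 0.044, and Anapc11, Anapc13 and Anapc16 rose by 0.43 ± 0.056, 0.31 ± 0.099 and 0.26 ± 0.057, of which Anapc13 lost its call with library totals alone (adjusted p = 0.0545, edgeR). Of 14 genes of cohesin and its regulators 9 fell and 5 did not pass the test (median −0.30), and the smallest adjusted p were those of Smc3 (−0.73 ± 0.057) and Rad21 (−0.56 ± 0.045).

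The subunits particular to condensin II split: Ncapg2 and Ncapd3 fell (−1.30 ± 0.098 and −0.83 ± 0.091), and Ncaph2 rose (0.25 ± 0.051), from 60.6, 54.8 and 59.7 CPM to 67.1, 71.9 and 68.5 CPM. Ncaph2 therefore went against its condensin I counterpart, with an Ncaph2 to Ncaph ratio of 2.76, 2.53 and 2.69 in control and 9.14, 12.1 and 9.01 in senescent medium.

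Other members of the kinesin family were listed by function. Of 4 other mitotic kinesins 3 fell (median −1.12), with Kif18b at −1.52 ± 0.13 and Kifc1 at −1.08 ± 0.068, although Kifc1 has a near-identical copy, Kifc5b, with which it may share reads. Of 29 kinesin genes for transport and interphase functions 27 were tested, 10 fell, 5 rose and the median was 0.0041, close to that of all tested genes. Of all tested genes 24.9% fell and 24.6% rose, and whether the 10 falls and 5 rises differ from these shares was not tested. Kif26b and Kif1a changed by −0.57 ± 0.059 and −0.26 ± 0.036. Kif3b and Kif16b rose by 0.22 ± 0.049 and 0.34 ± 0.089, and Kif1c, Kifap3 and Kif9 (whose groups overlapped) rose by 0.15 ± 0.033, 0.15 ± 0.052 and 0.53 ± 0.21 but lost their calls with library totals alone.

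Of 21 further cytokinesis and abscission genes 14 fell and 6 rose (median −0.14). Shcbp1, a midbody protein, changed by −2.04 ± 0.13 and Arhgap11a by −0.94 ± 0.068. Over all tested genes 24.9% fell and 24.6% rose, so the count of rises is near the background. The log2 fold changes of the 6, Rhoa, Rock2, Sept2, Myh9, Chmp2a and Chmp4b, were between 0.12 and 0.29, with the calls of Rhoa and Chmp2a lost under library totals (adjusted p = 0.323 and 0.269, edgeR). Of 29 further regulators of mitotic entry and exit 26 were listed, without Ccna1, Ccnb3 and Lin54, and 17 fell and 2 rose (median −0.44). The kinase Pbk changed by −1.63 ± 0.10, and Plk2, a stress-responsive relative of Plk1, rose from 78.0, 85.1 and 79.5 CPM to 129, 130 and 141 CPM (0.72 ± 0.045). Ccng2, a cyclin linked to cell cycle exit, rose by 0.40 ± 0.049.

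DNA replication genes, the nearest neighbours in the cell cycle, fell by less in the median. Of 49 such genes 41 fell and 1 rose, and the median log2 fold change was −0.62 beside −1.37 for the mitotic genes. Tk1 and Mcm4 changed by −1.79 ± 0.092 and −1.06 ± 0.059, and Orc5 rose by 0.28 ± 0.090, a call lost with library totals (adjusted p = 0.0807, edgeR). Falls of more than 2-fold were called for 10 of these 49 genes and for 46 of the 54 mitotic genes, where the background is 3.27%. The difference between the lists was not tested.

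**Figure D5:**
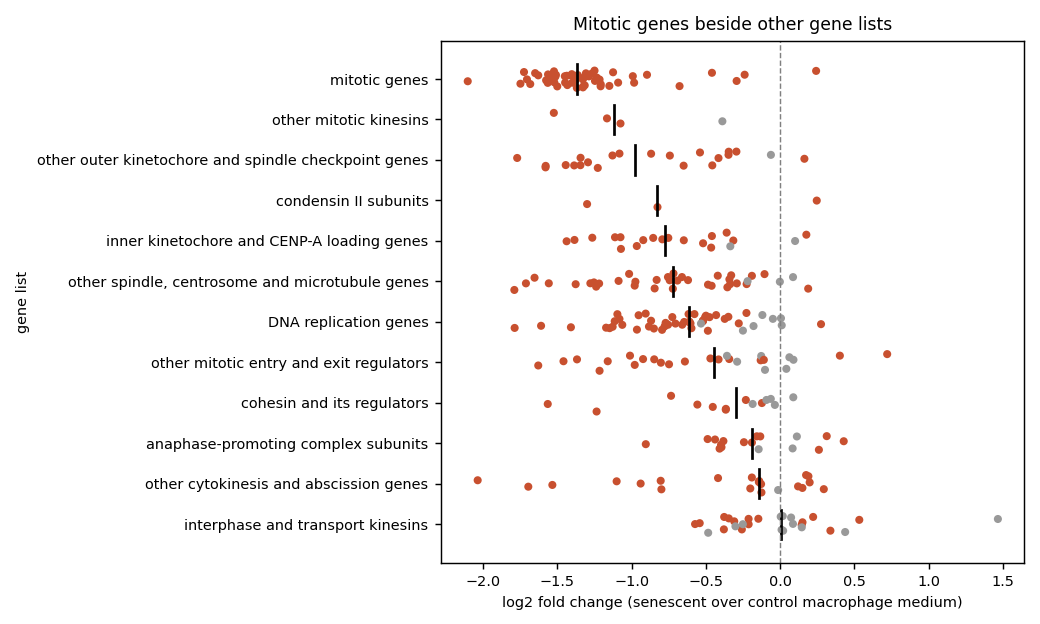
Log2 fold change (horizontal axis, senescent over control medium) of every tested gene of the mitotic set and of 11 other lists, with red points for genes past the adjusted p of 0.05, grey for the rest and black lines for medians. The mitotic genes gather near −1.37, the DNA replication genes near −0.62 and the transport kinesins around 0.

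Strand use in counting is not given, and in 7 members more than 10% of the exon length lies opposite exons of a gene on the other strand: Kif20a with Cdc23 (29.3%), Ube2c with Tnnc2 (22.8%), Kif4 with Pdzd11 (15.1%), Ncapg with Lcorl (13.4%), Cdc25c with Gm3550 (12.7%), Ccna2 with Exosc9 (12.5%) and Prc1 with Rccd1 (11.1%). Reads of both genes of a pair could have been counted together. All 53 falls kept their direction and their call in each of the 14 alternative settings of scaling, filter, test and libraries, with the largest adjusted p being 0.0398 for Cdc25b.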

How the data were processed

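The authors deposited 1 table of estimated counts by Ensembl gene identifier, without normalization, for the 6 libraries. Per the submitters' processing notes, which give neither roles nor an order, STAR, DESeq2 and the build mm39 are named. What counted the reads, with which annotation release and which strand setting, is not given in the sources used here. Per the labels' protocols, sequencing was paired-end at 150 bp from about 600 ng of RNA. No listed gene had fewer than 10 counts over all libraries together. Symbols and exon lengths came from GENCODE M21 (99.8% of identifiers matched), and promoter windows from RefSeq on GRCm38.p6, an older build than mm39, so no coordinates of the table itself are given.

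The values were rounded to whole numbers and tested in R 4.3.3 with edgeR 4.0.16, by its quasi-likelihood F-test (robust fit, TMM scaling, edgeR's expression filter, medium as the only term). Two-sided p-values were adjusted by Benjamini-Hochberg over all 14644 tested genes, and the threshold was 0.05. The SE of a log2 fold change is its absolute value divided by the square root of F. CPM uses TMM-adjusted library totals, and log2 CPM a prior count of 2. The test was first checked on simulated counts with 50 genes changed at each fold. It recovered 42% of those changed 1.2-fold, 74% at 1.5-fold, 90% at 2-fold and 94% at 4-fold, with 22 false calls. Far fewer genes changed there than the 49.5% called in these data, so scaling under such broad change was not checked. Alternatives were RLE scaling, library totals, other filters and thresholds, DESeq2 1.42.0, limma-voom (limma 3.58.1), the replicate number as a block and each library left out. Removal of the most abundant feature and a promoter window of 50 bases on either side of the start were added after the data were seen. All 54 members are named. Of each other list, the rule named the 2 genes with the smallest adjusted p and every gene called against the list's direction. A gene that this rule named is not reported here. Members and lists were chosen with earlier results of these data known. Groups and replicate numbers come from the sample titles.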

Additional observations from a re-analysis of the deposited data

How the results depend on the processing

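The count of mitotic genes lower was 53 under every alternative except the requirement of a 1.5-fold change, which left 50. The 1 gene higher, Pttg1, became 0 with DESeq2, library totals alone, no filter on low counts, an adjusted p under 0.01 or a 1.5-fold change, and 0 to 1 with a library left out. With library totals alone the members' median was −1.45, chromosome surface genes −1.53, condensin −1.44, kinases −1.46 and spindle assembly −1.30. That scaling moved the median of all genes to −0.082 and the split over the table from 3607 higher and 3644 lower to 2589 and 4813. It left 0 genes higher in the lists of DNA replication, outer kinetochore and spindle and centrosome genes and 2 in that of transport kinesins. With a library left out, medians ran from −1.41 to −1.35 for all members, −1.39 to −1.33 for condensin, −1.502 to −1.36 for kinases and −1.24 to −1.20 for spindle assembly. Genes called over the table went from 7251 to 2013 with the 1.5-fold requirement. Deviations of same-numbered libraries from the mean of their medium were hardly correlated (0.0187, 0.00189 and 0.0262). This cannot show whether the libraries were matched by mouse, sort or lot of medium. Under the replicate block 53 members were lower, 1 was higher, the median was −1.37 and 7402 genes were called. With the 250 bases before the start, CHR letters were in 44.4% of members, and in tested genes CHR, CCAAT and E2F-like letters were in 14.6%, 40.8% and 6.68%. With 50 bases on either side, CHR, CCAAT and E2F-like letters were in 66.7%, 48.9% and 11.1% of members. In tested genes the shares were 4.45%, 17.4% and 3.10%. A shorter window can only hold fewer matches, and the cause of the other shifts was not tested. Low counts limit Ska1, Cdc25c and Kif18a, whose standard errors were the largest of the members.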
